A study of Mus musculus with 78 samples.

Results

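Genes of the airway lining of the mouse lung, 5 of club cells (Scgb1a1, Scgb3a1, Scgb3a2, Cyp2f2 and Aldh1a1) and 3 of ciliated cells (Foxj1, Tekt1 and Dynlrb2), were followed through sleep and sleep deprivation. Each was read from a probe set annotated to that symbol alone, as were 18820 genes in all, and each of the 8 had 1 such probe set. The lungs came from 78 young adult male C57BL/6J mice fed only in the dark phase beforehand, with a separate array for each animal. Sleep deprived (SD) mice were kept awake by gentle handling from lights on and killed after 3, 6, 9 or 12 h (9, 9, 9 and 8 mice). Spontaneously sleeping (SS) mice were left undisturbed and killed at the same 4 hours (9, 7, 9 and 9 mice). Baseline (lights on) animals, 9 in all, were killed at the start of the light phase. No gene was altered in any group, and handling came with the wakefulness, so the effects of handling and of sleep loss cannot be told apart. The labels do not say how the mice were divided between litters or days, so p-values measure the spread between these animals.

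The conducting airways are lined mainly by club cells and ciliated cells. Club cells are dome-shaped secretory cells that release secretoglobins into the airway fluid, carry much of the cytochrome P450 activity of the lung and act as progenitors after injury. Ciliated cells bear motile cilia, built on an axoneme of microtubule doublets and driven by dynein arms, and they move mucus towards the throat. The transcription factor Foxj1 switches on the motile cilia programme together with factors of the RFX family, which bind a DNA element called the X-box. NKX2-1 is the master factor of the lung epithelium and takes part in the control of secretoglobin genes. Values throughout are log2 intensities after robust multi-array averaging, on which a difference of 1 is a doubling, and levels of different genes are not set against each other. Because whole lung was measured, fewer cells of a type and less RNA per cell cannot be told apart.

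The start regions of 4 of the genes are shown. Those of Scgb3a1 and Dynlrb2 were chosen because their levels went together most closely from mouse to mouse. That of Aldh1a1 was chosen because it differed from baseline. That of Tekt1 was chosen because its correlation with every axoneme gene measured was positive, from 0.04 to 0.70. RefSeq promoter entries (build GRCm38.p6) were matched for 5 of the genes. Each sequence is the 250 bases before the start site, 5′ to 3′ on the strand of the gene. Capitals mark the core of the X-box, GTTGCC, and a sequence bound by NKX2 factors, CAAGTG, on either strand (GGCAAC and CACTTG in reverse).
Scgb3a1, chr11:49663345-49663594, plus strand: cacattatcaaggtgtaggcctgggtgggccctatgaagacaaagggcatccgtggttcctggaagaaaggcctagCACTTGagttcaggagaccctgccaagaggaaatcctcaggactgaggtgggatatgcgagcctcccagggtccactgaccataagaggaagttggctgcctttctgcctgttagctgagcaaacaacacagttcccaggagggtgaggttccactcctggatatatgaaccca
Aldh1a1, chr19:20601718-20601967, plus strand: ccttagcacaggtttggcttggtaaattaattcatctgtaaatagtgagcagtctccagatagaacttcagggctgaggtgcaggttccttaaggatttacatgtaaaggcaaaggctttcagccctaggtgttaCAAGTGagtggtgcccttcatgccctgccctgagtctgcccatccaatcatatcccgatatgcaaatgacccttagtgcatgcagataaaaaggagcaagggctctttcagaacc
Tekt1, chr11:72361883-72362132, minus strand: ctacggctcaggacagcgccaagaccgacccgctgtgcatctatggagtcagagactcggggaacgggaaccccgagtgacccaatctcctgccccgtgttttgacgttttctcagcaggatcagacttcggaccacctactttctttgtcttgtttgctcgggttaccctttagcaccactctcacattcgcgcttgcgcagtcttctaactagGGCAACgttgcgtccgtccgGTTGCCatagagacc
Dynlrb2, chr8:116504765-116505014, plus strand: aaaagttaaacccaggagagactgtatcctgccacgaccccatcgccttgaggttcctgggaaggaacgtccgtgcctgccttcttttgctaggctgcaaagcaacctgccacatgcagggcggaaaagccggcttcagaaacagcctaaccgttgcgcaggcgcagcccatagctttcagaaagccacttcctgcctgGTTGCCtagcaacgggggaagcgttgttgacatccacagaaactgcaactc
GTTGCC lay 51 bases before the start of Dynlrb2 and both 35 and 15 bases before the start of Tekt1. CAAGTG lay 174 bases before the start of Scgb3a1, 115 before this start of Aldh1a1 and 191 before that of Cyp2f2. Of 32851 promoter windows of the same length, 10.4% held GTTGCC and 11.6% held CAAGTG on either strand. The other listed start of Aldh1a1 and the other of Tekt1 held neither. These matches are descriptions of the letters in the windows and not of bound sites.

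The 9 groups were not spread evenly over the arrays. The array numbers in the sample titles fall into 4 runs, in each of which the order of conditions starts again. Runs 1 and 2 held the 9 and 12 h groups, and runs 3 and 4 held the 3 and 6 h groups. All baseline mice were in run 3, so a difference between 9 or 12 h and baseline cannot be told apart from a difference between runs. In 16 arrays the number falls on another condition, or on none, when the order is laid along the numbers. Conditions were used as labelled, and the counts of the 8 genes that passed and of their correlated pairs were repeated without these 16. Markers of neighbouring tissue varied between mice. The mean level of 6 genes of squamous epithelium ran from 4.95 to 5.20 in SD mice at 9 h, from 5.001 to 9.33 in SS mice at 9 h and from 4.93 to 9.63 at baseline. Their part in the values of the airway genes was not tested. The label of lung was borne out by Sftpc, the surfactant protein C gene of alveolar type II cells, at 13.26 ± 0.07 (SD, n = 35) in SD mice and 13.25 ± 0.06 (n = 34) in SS mice.

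The 8 airway genes differed little between sleep deprived and sleeping mice over all hours. None of the 8 differed between SD and SS mice by limma's moderated test with Benjamini-Hochberg adjustment over all 35556 probe sets of the array (adjusted p under 0.01), while 8.03% of all genes did, 3.68% higher and 4.35% lower in SD mice. The 8 differences ran from -0.10 to 0.08 on the log2 scale, 4 up and 4 down, and their 95% intervals lay between -0.27 and 0.14. Only Aldh1a1 had an unadjusted p under 0.05, a threshold at which the share of all genes was not counted. Without the 16 arrays, Aldh1a1 passed, at a difference of 0.12 (adjusted p = 0.00158 from limma), when 12.1% of all genes passed.

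**Figure D1:**
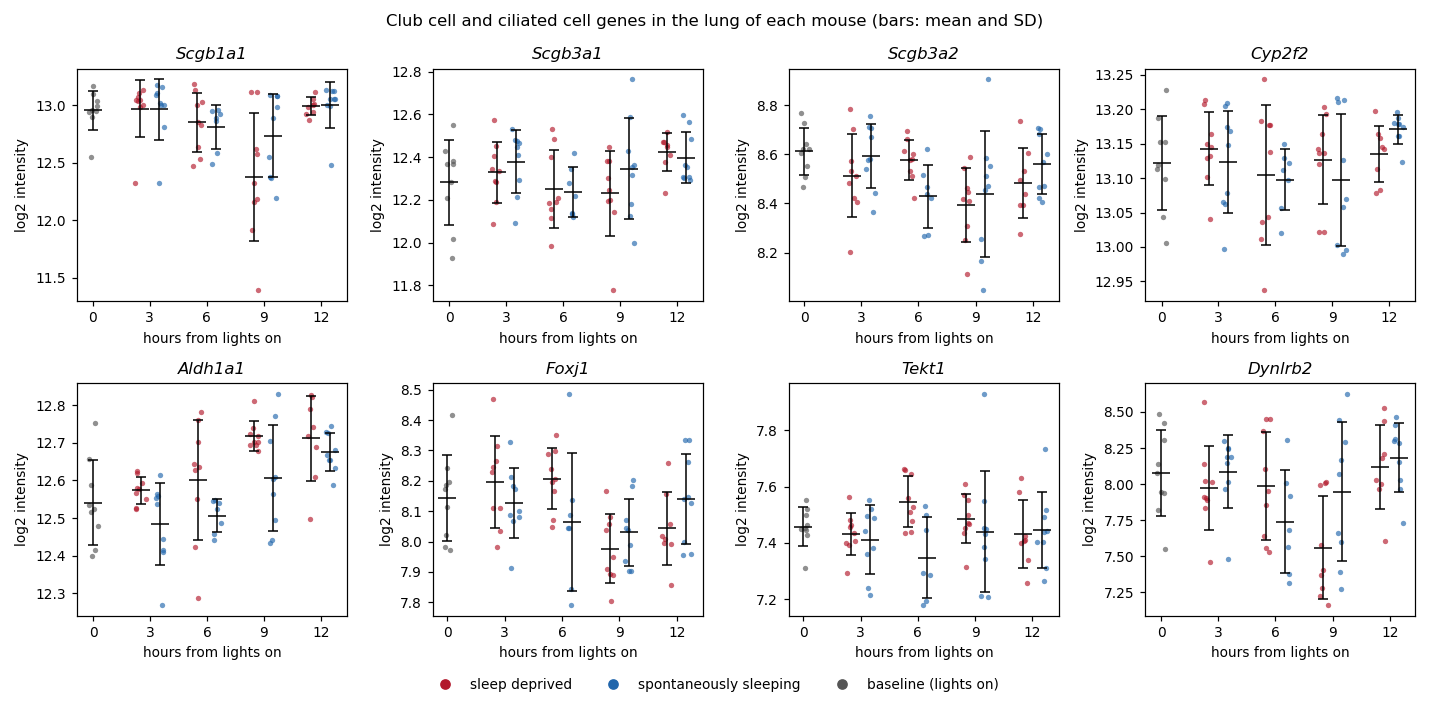
Log2 intensity of the 8 genes (vertical axes) in each of 78 mice against hours from lights on (horizontal axes), with dark red points for sleep deprived, blue for spontaneously sleeping and grey for baseline mice, and black bars for the mean and SD of each group. Scgb1a1 is lowest and most scattered in SD mice at 9 h, where the points run from 11.39 to 13.12, and Aldh1a1 in SD mice lies higher at 9 and 12 h than at baseline.

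Scgb1a1 (probe set 10465840, chr19:9083642-9087956 in GRCm38.p6, as all positions here), the club cell secretory protein (CCSP or uteroglobin) that is the most widely used marker of these cells, was lowest after 9 h without sleep. In SD mice at 9 h the lowest, median and highest values were 11.39, 12.32 and 13.12. In SS mice at 9 h they were 12.19, 12.89 and 13.09, and at baseline 12.55, 12.96 and 13.17. The groups overlapped, with 5 of 9 SD mice below the lowest baseline mouse, 4 of 9 below the lowest SS mouse and 2 of 9 above the highest SS mouse. Against baseline the difference was -0.58 (SE 0.14, adjusted p = 0.0011 from limma), and 15.5% of all genes passed in that comparison. Against SS mice of the same hour it was -0.36 (SE 0.14) and did not pass (adjusted p = 0.084 from limma). Within run 1 the 5 SD mice averaged 12.07 and the 5 SS mice 12.66, a difference of -0.59. Within run 2 the 4 SD mice averaged 12.76 and the 4 SS mice 12.83, a difference of -0.07. The SD mice of run 1 ran from 11.39 to 12.58 and those of run 2 from 12.18 to 13.12, so the lowest values came from run 1. Against baseline, 4 of 6 squamous, 2 of 6 cardiac and 5 of 5 B cell genes were lower too in SD mice at 9 h. Of all genes 8.69% were lower. Of 7 smooth muscle genes 3 were higher, and of 5 T cell, 6 liver and 8 cartilage genes 0 passed. From mouse to mouse within groups, Scgb1a1 had a median correlation of -0.04 with the squamous, 0.05 with the cardiac and -0.12 with the B cell genes. The part of these tissues in the result was not tested. In SD mice at 3, 6 and 12 h Scgb1a1 was 12.97 ± 0.25, 12.85 ± 0.26 and 12.99 ± 0.08 (SD), and in SS mice at those hours it was 12.97 ± 0.26, 12.81 ± 0.19 and 13.003 ± 0.20. In the order of the 9 group means only the step from SD mice at 9 h to the next, SS mice at 9 h, was larger than the SD within groups (0.29).

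Scgb3a1 (probe set 10375608, chr11:49663595-49665118) and Scgb3a2 (probe set 10455389, chr18:43764301-43767399), further secretoglobins, of which Scgb3a2 is an early marker of the club cell lineage and a target of NKX2-1, did not pass between states at any hour. Scgb3a1 had means between 12.23 in SD mice at 9 h and 12.42 in SD mice at 12 h, a range of 0.19 beside a within-group SD of 0.17. Scgb3a2 was highest at baseline, at 8.61 ± 0.10 (SD, n = 9), and lowest in SD mice at 9 h, at 8.39 ± 0.15 (n = 9). Of the 9 SD mice at 9 h, 7 lay below the lowest baseline value, with 8.11, 8.42 and 8.59 as the lowest, median and highest against 8.47, 8.62 and 8.77 at baseline. That difference, -0.22 (SE 0.07), did not pass (adjusted p = 0.018 from limma). It passed without mouse 6 of the SD group at 9 h (-0.24, adjusted p = 0.0096 from limma). The array of that mouse is among the 16, and with all 16 left out the difference did not pass. In SS mice at 9 h Scgb3a2 differed from baseline by -0.17 (SE 0.07, adjusted p = 0.13 from limma).

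Cyp2f2 (probe set 10551293, chr7:27119955-27133660), a cytochrome P450 of club cells that activates naphthalene and other inhaled toxicants, had the lowest SD of the 8 within groups. Its values lay between 12.94 and 13.24 in all 78 mice. By mean level it was among the highest of all genes (percentile 100 after rounding). Whether the upper end of the array's range narrowed its spread was not tested. Cyp2f2 averaged 13.13 ± 0.07 (SD, n = 35) in SD mice and 13.12 ± 0.07 (n = 34) in SS mice. The difference was 0.00 (SE 0.02), with a 95% interval from -0.03 to 0.04. Its SD within groups, 0.07, was lower than that of all but 1.4% of genes, and of all but 14.5% of genes of similar level, while those of Scgb1a1 (0.29) and Dynlrb2 (0.33) were higher than 92.9% and 94.4% of genes, and the median gene had 0.14.

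Aldh1a1 (probe set 10461979, chr19:20492583-20643463), a cytosolic aldehyde dehydrogenase that makes retinoic acid from retinal and clears reactive aldehydes, was the only one of the 8 with a slope over the hours that passed. In SD mice at 9 h the lowest, median and highest values were 12.68, 12.70 and 12.81. In SS mice at 9 h they were 12.44, 12.60 and 12.83, and at baseline 12.40, 12.52 and 12.75. All 9 SD mice were above the median of SS mice and above that of baseline mice, but 8 of 9 lay within the baseline range. The difference of SD mice at 9 h from baseline was 0.18 (SE 0.05, adjusted p = 0.0049 from limma). It did not pass without mouse 4 of the SD group at 9 h or without baseline mouse 3, 4 or 5 (adjusted p up to 0.015 from limma). At 12 h SD mice differed from baseline by 0.17 (SE 0.05, adjusted p = 0.022 from limma) and SS mice by 0.14 (SE 0.05, adjusted p = 0.076 from limma). Over the hours of deprivation Aldh1a1 rose by 0.20 per 12 h (SE 0.05, adjusted p = 0.0018 from limma), and 12.1% of all genes had a slope that passed. Over the hours of sleep its slope was 0.16 per 12 h (SE 0.05, adjusted p = 0.021 from limma), which did not pass, when 7.87% of all genes did. When the 4 runs were blocked, the deprivation slope was 0.09 (adjusted p = 0.79 from limma) and 0 genes passed in either state. Because the runs split the hours, a blocked slope rests on hours within runs alone. That fit cannot tell run from hour. Run 1 and run 2 SD mice at 9 h averaged 12.73 and 12.70, which was 0.19 and 0.16 above the baseline mean.

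Between states, the differences of Aldh1a1 at 3, 6, 9 and 12 h were 0.09, 0.10, 0.11 and 0.04, and none of these passed. Without the 16 arrays the difference at 9 h was 0.17 and passed (adjusted p = 0.0035 from limma, 7.13% of genes called). Aldh1a7, its close paralog in rodents, is read by a probe set of its own, but signal from one may reach the probes of the other, so both values are uncertain in that respect. Aldh1a7 had group means from 10.46 in SS mice at 3 h to 10.65 in SD mice at 9 h. It differed between states over all hours by 0.10 (SE 0.03, adjusted p = 0.016 from limma).

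Foxj1 (probe set 10393266, chr11:116330704-116335499), the master regulator of motile cilia, had a mean of 8.11 ± 0.16 (SD, n = 35) in SD mice and 8.09 ± 0.15 (n = 34) in SS mice. The order of its group means ran from 8.21 in SD mice at 6 h to 7.98 in SD mice at 9 h, and no step between neighbours was larger than its SD within groups (0.14). SD mice at 9 h had lowest, median and highest values of 7.80, 7.95 and 8.17 against 7.97, 8.17 and 8.42 at baseline, and no SD mouse was above the baseline median. This difference was -0.17 (SE 0.07, adjusted p = 0.051 from limma). The slope over deprivation, -0.17 per 12 h (SE 0.06), had an adjusted p of 0.048 from limma and did not pass.

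Tekt1 (probe set 10388174, chr11:72344717-72362442), a tektin filament protein of the axonemal doublets, had its largest difference between states at 6 h. SD mice at 6 h had lowest, median and highest values of 7.44, 7.53 and 7.66 against 7.18, 7.29 and 7.53 in SS mice. All 9 SD mice were above the SS median and 4 were above the highest SS mouse. The difference was 0.20 (SE 0.06, adjusted p = 0.13 from limma). Within run 3 it was 0.07 over 5 mice of each state, and within run 4 it was 0.45 over 4 SD and 2 SS mice. At 3, 9 and 12 h the differences were 0.02, 0.05 and -0.01.

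Dynlrb2 (probe set 10575725, chr8:116505015-116515915), a light chain of dynein of the roadblock family that is abundant in ciliated tissues, had the widest spread of the 8 when the SD within groups was pooled over all 9 groups, while in SD mice at 9 h that of Scgb1a1 was wider. In SD mice at 9 h the lowest, median and highest values were 7.16, 7.41 and 8.01. They were 7.27, 8.07 and 8.63 in SS mice at 9 h and 7.55, 8.08 and 8.48 at baseline. No SD mouse at 9 h was above the median of either of those groups. The difference was -0.39 from SS mice (SE 0.16, adjusted p = 0.10 from limma) and -0.52 from baseline (SE 0.16, adjusted p = 0.011 from limma) and did not pass. The difference from baseline passed when mouse 6, 8 or 9 of the SD group or baseline mouse 5 or 7 was left out. It ran from -0.58 to -0.46 over all 18 such fits. The array of SD mouse 6 is among the 16, and with all 16 left out the difference did not pass. Within run 1 SD mice averaged 7.29 and SS mice 7.76, and within run 2 SD mice averaged 7.90 and SS mice 8.19, so both runs had the same sign. At 6 h the sign was the other one, with 7.99 ± 0.38 (SD, n = 9) in SD mice and 7.74 ± 0.36 (n = 7) in SS mice. That difference, 0.25 with an SE of 0.17, did not pass (adjusted p = 0.66 from limma).

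Hour by hour, 0 of the 8 genes passed at 3, 6, 9 or 12 h, where 7.36%, 0.085%, 2.88% and 0.133% of all genes did. At an unadjusted p under 0.05 there were 0, 2, 3 and 0 of the 8. Foxj1 and Tekt1 had positive differences at 6 h and Aldh1a1 at 9 h. Scgb1a1 and Dynlrb2 had negative ones at 9 h. The share of all genes at that unadjusted threshold was not counted, so these counts have no share to be set against. All 8 differences were above 0 at 6 h, with a median of 0.12, beside 0.017 for all genes. Within run 4, with 4 SD and 2 SS mice, Scgb1a1 (-0.044), Scgb3a1 (-0.007) and Cyp2f2 (-0.032) were below 0 at 6 h. Leaving out single mice also turned the sign of these genes, with -0.012, -0.02 and -0.01 as their lowest values. At 3, 9 and 12 h 5, 3 and 2 of 8 were above 0, with medians of 0.01, -0.05 and -0.03. The medians of all genes at those hours were 0.007, -0.009 and -0.007. The F test for a change of the state difference over the hours passed for none of the 8 and for 0.0691% of all genes. The smallest adjusted p were 0.31 for Dynlrb2 and Foxj1, so the opposite signs at 6 and 9 h were not shown to differ.

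**Figure D2:**
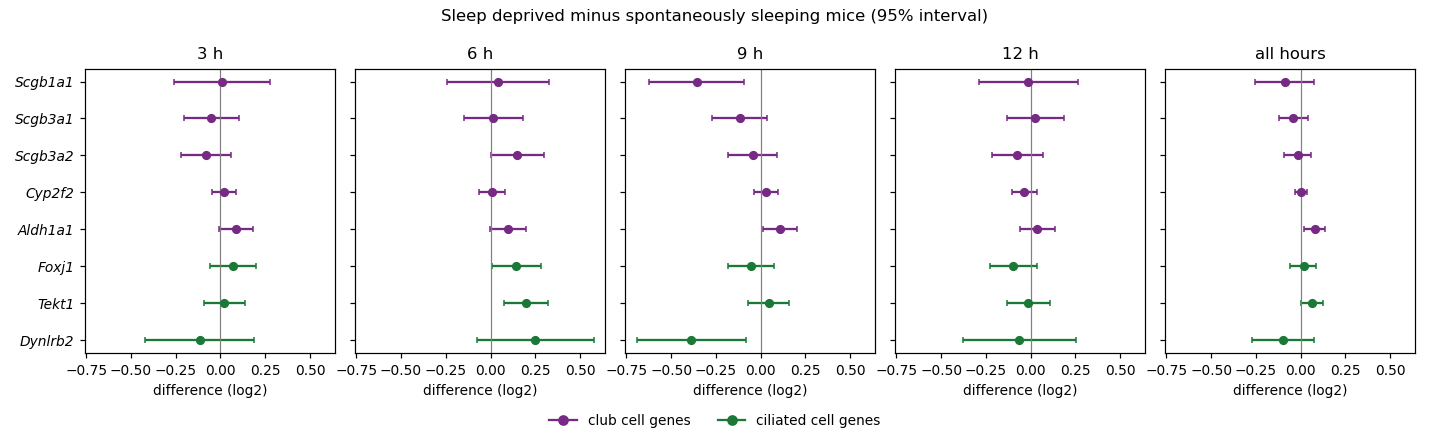
Difference of the group means, sleep deprived minus spontaneously sleeping mice (log2, horizontal axes), for the 8 genes (rows) at 3, 6, 9 and 12 h and over all hours (panels), with bars for the 95% interval, purple for club cell genes and green for ciliated cell genes. Scgb1a1 and Dynlrb2 have the widest intervals and their lowest values at 9 h (-0.36 and -0.39), and Cyp2f2 the narrowest.

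Over all 9 groups together, limma's F test passed for 2 of the 8, Scgb1a1 (F = 4.29, adjusted p = 0.0019) and Aldh1a1 (F = 5.86, adjusted p = 0.00012), when 31.1% of all genes passed. At 9 h of deprivation against baseline 2 of 8 passed, Scgb1a1 down and Aldh1a1 up, beside 8.69% of all genes that were lower and 6.8% that were higher. At 3, 6 and 12 h of deprivation 0 of 8 passed (1.88%, 0.335% and 5.39% of genes), with 0, 0 and 1 of the 8 at an unadjusted p under 0.05. At 3, 6, 9 and 12 h of sleep 0 of 8 passed (0.0159%, 0.383%, 3.52% and 6.34% of genes), with 0, 2, 1 and 1 at an unadjusted p under 0.05. The shares of genes here are at an adjusted p under 0.01, and none was counted at the unadjusted threshold. Aldh1a1, with the 16 arrays left out, also passed at 12 h of deprivation and at 12 h of sleep, beside 9.7% and 10% of genes. These 8 comparisons share the baseline mice. Spread between mice over baseline and the 4 hours of sleep differed for 0 of the 8 by Bartlett's test with adjustment over all probe sets, beside 4.78% of genes, or 0.143% where the Brown-Forsythe test passed as well. At an unadjusted Bartlett p under 0.05 were Scgb3a2, Cyp2f2 and Aldh1a1, and the share of all genes there was not counted. Cyp2f2 had the smallest adjusted p (0.052), with an SD of 0.10 in SS mice at 9 h and 0.02 in SS mice at 12 h.

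Other genes of the airway lining were read from lists, against the same 8.03% of all genes that differed between states. Of 14 further secretory genes 1 was higher in SD mice over all hours, Hp, the haemoglobin-binding haptoglobin, at 11.64 ± 0.11 in SD and 11.50 ± 0.12 in SS mice (difference 0.15, SE 0.03, adjusted p = 0.00014 from limma). Of 7 genes of mucous cells 1 was higher, Muc5b, the main secreted mucin of mouse airways, at 9.89 ± 0.28 in SD and 9.50 ± 0.25 in SS mice (difference 0.39, SE 0.06, adjusted p = 7.98e-06 from limma). Its differences at 3, 6, 9 and 12 h were 0.41, 0.33, 0.39 and 0.42, and at baseline it was 9.12 ± 0.27. Of 13 detoxifying enzymes 1 was lower, the sulfotransferase Sult1d1 (difference -0.31, SE 0.08, adjusted p = 0.0037 from limma), while Fmo2, the lung form of flavin monooxygenase, passed at 9 h alone (0.24, adjusted p = 0.0085 from limma). Without the 16 arrays Sult1d1 did not pass, and Cyp2s1 and Aldh1a7 did, both higher.

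Among 39 genes of the ciliary axoneme, 5 passed, or 4 higher and 1 lower in SD mice, with a median difference of 0.03 beside 0.00 for all genes. Mns1, which is needed for motile cilia and sperm tails in mice, was 7.08 ± 0.25 in SD and 6.79 ± 0.16 in SS mice (difference 0.29, SE 0.05, adjusted p = 2.3e-05 from limma). Cfap45 and Cfap53, proteins inside or along the doublets, were higher by 0.20 and 0.18, and Lrrc23, a radial spoke protein, by 0.13. Ak8, an adenylate kinase of cilia, had a difference of -0.24. At 3 h Mns1, Cfap45 and Cfap53 were higher by 0.47, 0.27 and 0.30. Tekt2, a relative of Tekt1, had a difference of -0.22 at 3 h (adjusted p = 0.0079 from limma) and Ak8 of -0.30. Of 11 regulators of multiciliated cell fate 1 passed, Gmnc, the geminin-family factor that starts the fate, at 7.62 ± 0.31 in SD and 7.26 ± 0.25 in SS mice (difference 0.36, SE 0.07, adjusted p = 7.9e-05 from limma). Its largest difference was 0.50 at 3 h. Without the 16 arrays 8 axoneme genes were higher and 1 lower, beside 12.1% of genes.

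Of 13 regulators of secretory cells 0 passed over all hours by limma, and Nkx2-1 was lower in SD mice at 9 h (-0.19, adjusted p = 0.0063 from limma). Of 15 genes of retinoid handling, the pathway of Aldh1a1, 1 passed, Dhrs3, which turns retinal back to retinol, at 11.10 ± 0.11 in SD and 10.95 ± 0.13 in SS mice (difference 0.15, SE 0.03, adjusted p = 0.00017 from limma). Over the hours, 5 of the 13 detoxifying enzymes rose with deprivation and 4 with sleep (Ephx1, Cyp2b10, Fmo2 and Cbr2 in both, Gsto1 in deprivation), none fell, and 5.84% and 4.47% of all genes rose, while 6.28% and 3.41% fell. Ephx1, the microsomal epoxide hydrolase, rose by 0.23 per 12 h of deprivation (SE 0.06) and by 0.40 per 12 h of sleep (SE 0.05). Foxa1 and Foxa2, pioneer factors that act with NKX2-1 in airway cells, fell by 0.45 and 0.39 per 12 h of deprivation and by 0.31 and 0.25 per 12 h of sleep. Cebpd, a C/EBP factor, rose by 0.75 per 12 h of deprivation and 0.95 per 12 h of sleep. Both slopes share the baseline mice, so the same direction in both is not independent. The genes of this paragraph without a state difference were picked after their values were seen. With the 4 runs as a block 0 of the slopes passed, but the runs split the hours, so that fit cannot tell run from hour.

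Against baseline, SD mice at 9 h differed in 5 of the 14 secretory genes, beside 15.5% of all genes. As above, this cannot be told apart from a difference between runs. Lypd2, Scgb1c1, Chad and Gabrp were lower, with differences of -0.55, -0.39, -0.36 and -0.23, and Hp was higher by 0.21. Scgb1c1 is a further secretoglobin. Of the 39 axoneme genes 3 were higher (Rsph1 by 0.40, Cfap52 by 0.27 and Rsph9 by 0.25) and 4 lower, with differences of -0.47 for Cfap126, -0.46 for Sntn, -0.41 for Ak8 and -0.12 for Tppp3. Of all genes 6.8% were higher and 8.69% lower in that comparison. Of the 13 secretory regulators 4 were lower (Foxa1 -0.44, Elf3 -0.44, Foxa2 -0.38 and Nkx2-1 -0.23) and Cebpd was higher by 0.63. Of the 7 mucous cell genes Muc5b was higher by 0.77 and Clca1 by 1.36. Against SS mice at 9 h fewer passed, 1 of the 14 secretory genes and 2 of the 39 axoneme genes. Of the 13 secretory regulators 1 passed there and of the 7 mucous cell genes 0, beside 2.88% of all genes. Genes named here and in no other comparison were picked after their values were seen.

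Lists of other cell types gave, over all hours, 0 of 7 basal, 0 of 4 neuroendocrine, 0 of 8 alveolar type II and 0 of 7 alveolar type I genes that passed, although Rtkn2 of type I cells was higher at 3 h (0.21, adjusted p = 0.0053 from limma). Of 7 genes of tuft cells and ionocytes 2 were higher, Avil (0.20) and Ascl3 (0.13), and of 7 smooth muscle genes Acta2 (0.16) and Cnn1 (0.24) were higher. All 5 B cell genes and 2 of 5 T cell genes were lower, with Cd79b at 9.56 ± 0.43 in SD and 10.20 ± 0.48 in SS mice. None of 8 cartilage, 6 squamous, 4 thyroid, 6 cardiac, 6 liver and 2 red cell genes passed. Squamous and liver genes had the widest spread between mice: Krt13 averaged 6.45 ± 2.23 in SD and 7.61 ± 2.56 in SS mice, and Alb 9.01 ± 1.82 in SD and 9.40 ± 2.16 in SS mice.

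Correlations between the 8 genes from mouse to mouse were set beside those of all genes. Taking out the mean of each group, 18 of the 28 pairs had a correlation over 78 mice that passed a permutation test within groups (100000 permutations, 2-sided, Benjamini-Hochberg adjusted p under 0.01 over the 28 pairs), and 1 pair was negative. The lowest such r was 0.295, and 67.9% of the 28 pairs had an r of at least that size, against 17.1% of all pairs of genes in either direction. The share of other genes with an r of that size in either direction ran from 14.7% for Tekt1 to 33.8% for Dynlrb2. The median r with all genes lay between -0.03 and 0.08 for the 8. With the 16 arrays left out 14 of the 18 pairs passed, and no other pair did. Scgb3a1 and Dynlrb2 had the highest, with Pearson's r of 0.77 (p = 1e-05, the smallest these permutations can give, adjusted p = 2.8e-05) and Spearman's rho of 0.75 (p = 1e-05). Without the 2 mice farthest from the median of Scgb3a1 it was 0.76. Within runs 1 to 4 it was 0.66, 0.77, 0.84 and 0.48. Scgb1a1 and Dynlrb2 followed at r = 0.75 (rho 0.76), with 0.61, 0.70, 0.84 and 0.75 within runs, and Scgb1a1 and Scgb3a1 at r = 0.68 (rho 0.63), with 0.82, 0.52, 0.73 and 0.30. The median r was 0.44 for the 10 pairs of club cell genes, 0.48 for the 3 pairs of ciliated cell genes and 0.38 for the 15 pairs between the cell types. Whether pairs within a cell type differed from pairs between them was not tested. In run 4 some pairs had the other sign, with r = -0.35 for Scgb1a1 and Cyp2f2 (0.65 over all mice) and -0.16 for Foxj1 and Dynlrb2 (0.62 over all mice). Aldh1a1 stood apart over all mice, with r between 0.07 and 0.37 with the other 7 genes and no pair that passed. Within runs its r varied more. In run 2 it ran from -0.195 with Cyp2f2 to 0.759 with Scgb3a2. In run 4 it ran from -0.712 with Dynlrb2 to 0.555 with Cyp2f2. Over the lists, the median r of Aldh1a1 ran from -0.56 with the 5 B cell genes to 0.41 with the 13 detoxifying enzymes. With the 14 secretory genes its median r was 0.09. The part of other cell types in the Aldh1a1 values was not tested. The points share the assay, and each is a whole lung sample.

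**Figure D3:**
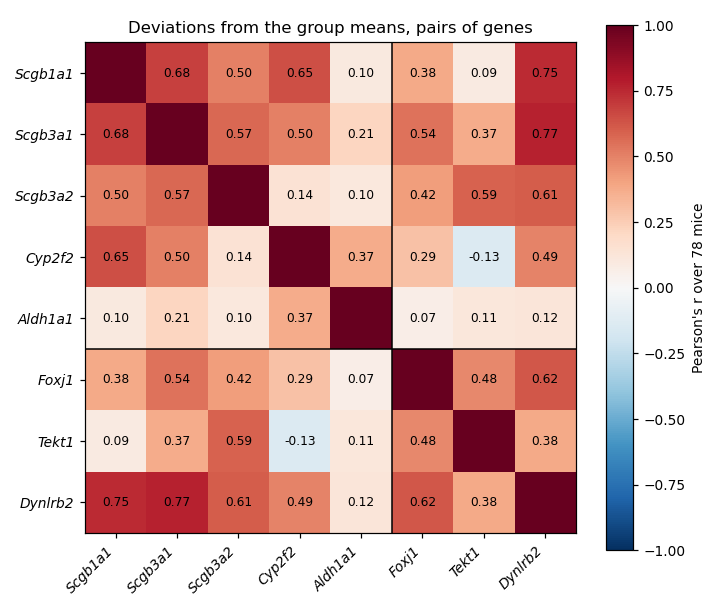
Pearson's r between the deviations of 8 genes from their group means over 78 mice (colour scale from -1 to 1, value written in each cell), club cell genes above and left of the black lines and ciliated cell genes below and right of them. The Scgb3a1 and Dynlrb2 pair has 0.77 and the Aldh1a1 row is the palest.

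For each gene the 3 others whose deviations from group means were most like its own over the 78 mice were taken from all 18820 genes, as a description. Some were genes of the airway lining. For Scgb3a1 they were Bpifb1 (r = 0.80), a secreted protein of airway cells, Cxcl17 (0.78), a mucosal chemokine, and Dynlrb2 (0.77). For Scgb3a2 they were Ehf (0.74), an epithelial ETS factor, Sntn (0.72), a protein of the ciliary tip, and Ap1m2 (0.72), an epithelial sorting adaptor. For Tekt1 they were Eno4 (0.76), Anxa8 (0.72) and Ak7 (0.70), of which Ak7 is an adenylate kinase of motile cilia. Tekt1 had a positive r with all 39 axoneme genes, from 0.04 to 0.70, with a median of 0.48. Foxj1 had one with 35 of 39 (median 0.37) and Dynlrb2 with 29 of 39 (median 0.29).

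For the other members most of the nearest genes were on none of the airway lists. Scgb1a1 was nearest to Tmsb4x (r = 0.91), Rny3 (0.91) and Snord33 (0.85), of which Rny3 is a Y RNA and Snord33 a small nucleolar RNA. Dynlrb2 was nearest to Rpl27a (0.92), a ribosomal protein gene, Map1lc3b (0.90) and Sntn (0.89). Cyp2f2 was nearest to Cst3 (0.80), Rpl21 (0.78) and Lyz2 (0.78). Aldh1a1 was nearest to Vapa (0.83), Gm4956 (0.81) and Pon3 (0.81), and Foxj1 to Ipo13 (0.78), Cep170b (0.75) and Rusc2 (0.75). Of the genes nearest to Scgb1a1 and Dynlrb2, Rny3, Snord33, Rpl27a and Sntn were lower in SD mice at 9 h than at baseline. Tmsb4x (-0.26, limma adjusted p = 0.0115) and Map1lc3b (-0.23, limma adjusted p = 0.0119) had the same sign and did not pass. Rny3 was 11.74 ± 0.63 in SD mice at 9 h, 12.20 ± 0.53 in SS mice at 9 h and 12.55 ± 0.22 at baseline (SD, n = 9 each), and its difference of SD mice from baseline was -0.81 (SE 0.18, adjusted p = 0.00076 from limma). The same comparison gave -1.11 for Snord33 (SE 0.25, limma adjusted p = 0.00069) and -0.49 for Rpl27a (SE 0.10, limma adjusted p = 0.00022). For Sntn it gave -0.46 (SE 0.115, limma adjusted p = 0.0021). Their part in the Scgb1a1 and Dynlrb2 values was not tested.

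**Figure D4:**
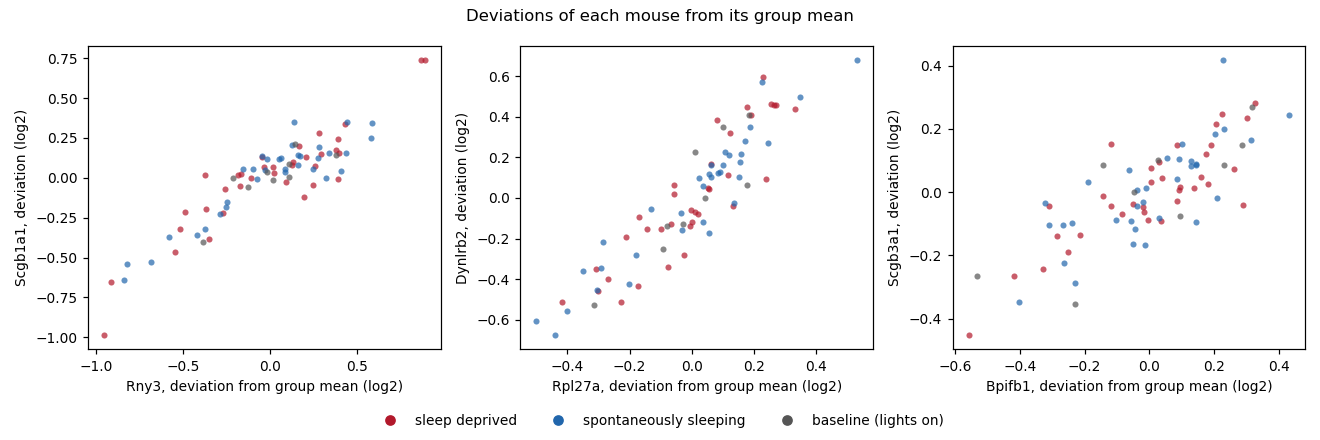
Deviation of each of 78 mice from its group mean (log2) for Scgb1a1 against Rny3, Dynlrb2 against Rpl27a and Scgb3a1 against Bpifb1 (vertical against horizontal axes), dark red for sleep deprived, blue for spontaneously sleeping and grey for baseline mice. Mice of all 3 kinds lie along the same band in each panel (r = 0.91, 0.92 and 0.80).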

How the data were processed

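RNA of whole mouse lung (Trizol and RNeasy) was hybridised to 78 Affymetrix arrays (Mouse Gene 1.0 ST), 1 a mouse. The authors normalised the arrays by robust multi-array averaging (RMA) in R, which subtracts background, sets all arrays to 1 distribution and so can mask a shift shared by most genes. The version is not given in the sources used here. The authors deposited these as log2 intensities written as digit strings with no decimal point. The point was put back behind digit 1, or behind digit 2 where a string starts with 1, which gave values of 2.27 to 13.85 and array medians of 6.45 to 6.78. The highest correlation of 2 arrays was 0.9963. The number of arrays limits the precision.

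Of 35556 probe sets, 21218 had 1 gene symbol, 1881 several and 12457 none in the platform annotation, and the probe set with the highest mean stood for each of 18820 genes. Groups came from the labels. Differences were tested with limma 3.58.1 (R 4.3.3) over all probe sets with Benjamini-Hochberg adjustment, and a gene was called at an adjusted p under 0.01. Differences over all hours came from SD and SS mice alone, slopes from baseline and 1 state with hours as a number, and the rest from all 9 groups. Correlations used Python 3.11.15, numpy 2.4.6, pandas 2.3.3 and scipy 1.17.1, and figures matplotlib 3.10.9. Scripts were tested on simulated data. The members and lists were chosen with earlier results of these data known. From each list up to 4 genes that passed between states, with the smallest adjusted p, were named, or the 2 with the highest mean where none passed, and for each member the 3 genes most like it. Lrrc23, Tekt2, Aldh1a7 and Cyp2s1 were named outside this rule. Other genes named outside it are said to be.

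Alternatives were the 4 runs as a block, leaving out 16 arrays, a filter at a mean of 6, arrays centred on their median, array weights, another eBayes prior, hours as a factor and each mouse left out. Those for 9 h of deprivation against baseline, for the other differences from baseline, for the slope over deprivation, for the count of correlated pairs and for any difference among groups were chosen after seeing the data.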

Additional observations from a re-analysis of the deposited data

Results flagged for a closer look

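In 9 of 72 groups of a gene's values the lowest or highest mouse lay further from its nearest neighbour than Dixon's test allows at 95%, where chance flags about 1 in 20 groups. For Scgb1a1 this was the lowest mouse in 4 groups, at 12.32 in SD mice at 3 h (nearest 12.99), 12.325 in SS mice at 3 h (nearest 12.81), 12.476 in SS mice at 12 h (nearest 12.99) and 12.551 at baseline (nearest 12.90). The low SS mouse at 3 h was also the lowest for Dynlrb2, at 7.482 (nearest 7.97), and the low SS mouse at 12 h was also the lowest for Cyp2f2, at 13.123 (nearest 13.16). The lowest Scgb3a1 value in SD mice at 9 h was 11.777 (nearest 12.14). The highest Aldh1a1 value in SD mice at 9 h was 12.81 (nearest 12.74), and the highest Tekt1 value in SS mice at 9 h was 7.929 (nearest 7.55). The arrays of the SS mice at 3, 9 and 12 h named here are among the 16 whose number falls on another condition or on none.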

How the results depend on the processing

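Of 305 values of single genes under alternative settings, 286 kept their direction and their side of the threshold. Without the 16 arrays 1 gene (Aldh1a1) was called over all hours and 1 at 9 h, beside 12.1% and 7.13% of all genes. In the test of any difference among groups 5 were called without the 16 arrays and 5 with array weights. Both settings added Scgb3a2, Foxj1 and Dynlrb2, beside 37.5% and 45.4% of all genes, against 31.1%. Array weights also called 4 of 8 at 9 h of deprivation against baseline, adding Scgb3a2 and Dynlrb2, beside 25.6% of all genes, against 15.5%. Leaving out single mice there gave 1 to 4. The slope over sleep had 1 call, Aldh1a1, with array weights and 1 with a common intercept, beside 14.4% and 13.7% of all genes. The slope over deprivation had 0 with the 4 runs as a block, when 0% of all genes passed. Blocked slopes rest on hours within runs alone and cannot tell run from hour. With the 16 arrays left out 1 gene, Aldh1a1, was called at 12 h of deprivation and 1 at 12 h of sleep, each against baseline. Of all genes 9.7% and 10% passed there. With the runs as a random block, both calls at 9 h against baseline were kept, beside 12.3% of all genes. No run held mice of both groups, so this fit cannot tell run from group. Without the 16 arrays the sign turned for Scgb1a1 (-0.118) and Cyp2f2 (-0.005) at 3 h, Scgb3a2 at 9 h (0.002) and Tekt1 at 12 h (0.01). With arrays centred it turned for Cyp2f2 over all hours (-0.002) and at 9 h (-0.001), and with array weights for Scgb1a1 at 3 h (-0.004) and in the slope over sleep (0.001). With the 4 runs as a block it turned for the slopes of Scgb1a1 (0.044 over sleep, 0.367 over deprivation) and Dynlrb2 (-0.255 and 0.436). None of these values passed, and the cause was not tested. The share of all genes called over all hours was 12.7% with the filter, 12.6% with array weights and 12.1% without the 16 arrays, against 8.03%, and at 6 h it was 3.92% without the 16 arrays, against 0.085%. The share for the change over hours was 1.07% without the 16 arrays, against 0.0691%, and at 12 h it was 1.8% with array weights, against 0.133%. No paired analysis was possible because the array numbers in the titles are not shared between groups. No other probe set of any of the 8 genes could be tried, since each had 1.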
